A study of Homo sapiens with 4 samples.

Results

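The 10 genes described here are feedback genes of the ERK pathway, chosen by name from the 58825 Ensembl gene rows of the count tables. They comprise the dual-specificity phosphatase genes DUSP4, DUSP5 and DUSP6, the Sprouty genes SPRY1, SPRY2 and SPRY4, the Spred genes SPRED1 and SPRED2, and the PEA3 transcription factor genes ETV4 and ETV5. They were measured by RNA sequencing in LoVo, a line established from a human colon adenocarcinoma, in 2 replicate libraries from MET+ cells, which carry the labels WT and GFP control, and 2 from MET-KO cells, labelled as MET knock out. All cells grew in DMEM with 10% fetal bovine serum. In LoVo cells the MET receptor stays uncleaved and is active without its ligand, and the comparison asks what changes when the gene is disrupted by CRISPR/Cas9. By the study's methods, knockout clones were picked as single colonies and selected by western blot, and whether 1 clone or several gave the MET-KO libraries is not stated, so that a property of a clone and an effect of MET cannot be told apart. The replicates are called biological, but what separates them is not stated, and the p-values measure the spread between these libraries.

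Receptor tyrosine kinases such as MET switch on RAS, which passes the signal through RAF and MEK to the kinase ERK. Active ERK induces the genes of its own inhibitors, so that transcripts of this group are widely used as a readout of the pathway. DUSP proteins remove the activating phosphates from ERK, Sprouty and Spred proteins act upstream at the level of RAS and RAF, and ETV4 and ETV5 are ETS-family transcription factors that carry the signal to further genes. In the intestinal epithelium the pathway drives proliferation, and in colorectal cancers it is often held active by mutation.

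Library totals ran from 8429142 to 10286552 counts. The targeted gene, MET (ENSG00000105976), was read 2794 and 3272 times in MET+ and 861 and 965 times in MET-KO cells, which is a log2 fold change of -1.96 (SE, the standard error, 0.09). Of 10 markers of colon epithelium, 9 could be tested, with 6 lower and 2 higher in MET-KO cells. Over all tested genes, 26.9% were lower and 27.2% higher. Their summed CPM (each gene's counts relative to the normalized library size) was 8100 and 8050 in MET+ and 6860 and 6090 in MET-KO cells. Most of this marker sum was KRT18, with 6180 and 5860 CPM in MET+ and 5130 and 4630 CPM in MET-KO cells. CDX1 had 0 counts in all 4 libraries, KRT20 had 0 counts in both MET+ libraries, and CEACAM5 had 0 in both MET-KO libraries. The other markers were read in every library. LGALS4 had 89 and 107 counts in MET+ and 1 and 1 in MET-KO cells, and VIL1 had 43 and 58 against 3 and 3. EPCAM fell (log2 fold change -1.11, SE 0.09), as did CDH1 (-0.88, SE 0.10) and KRT18 (-0.30, SE 0.10). KRT8 did not pass (-0.19, SE 0.11), and CDX2 rose (1.04, SE 0.10). The 10 markers of fibroblasts, leukocytes and endothelium summed to 1.27 to 2.3 CPM, with 5 at 0 counts in all libraries. Whether the shift in epithelial markers has a part in the values below was not tested.

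All 10 feedback genes were expressed enough to be tested. At an adjusted p of 0.05, 7 of the 10 were lower in MET-KO cells (DUSP4, DUSP5, DUSP6, SPRY4, SPRED1, SPRED2 and ETV5), 1 was higher (SPRY1) and 2 did not pass (SPRY2 and ETV4). Over all 13801 tested genes, 54.1% were called, 26.9% lower and 27.2% higher. The calls come from the quasi-likelihood test of edgeR, adjusted over all genes by the method of Benjamini and Hochberg, and edgeR adjusted p stands for this value below. The median log2 fold change of the 10 genes was -0.42, against 0.01 over all tested genes, and the single values ran from -3.03 to 0.97. A log2 fold change of -1 or below was called for 3 of the 10 (SPRY4, DUSP4 and DUSP6) and for 9.81% of all tested genes. The MET-KO libraries lay below the MET+ libraries without overlap for the 7 genes called lower, a pattern found in 37.1% of all tested genes. For a single gene, the smallest p that an exact permutation test allows with 2 libraries a group is 0.333 (two-sided), so that the calls rest on the spread estimated across genes. In these bulk samples, fewer cells expressing a gene and less RNA per cell cannot be told apart.

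**Figure D1:**
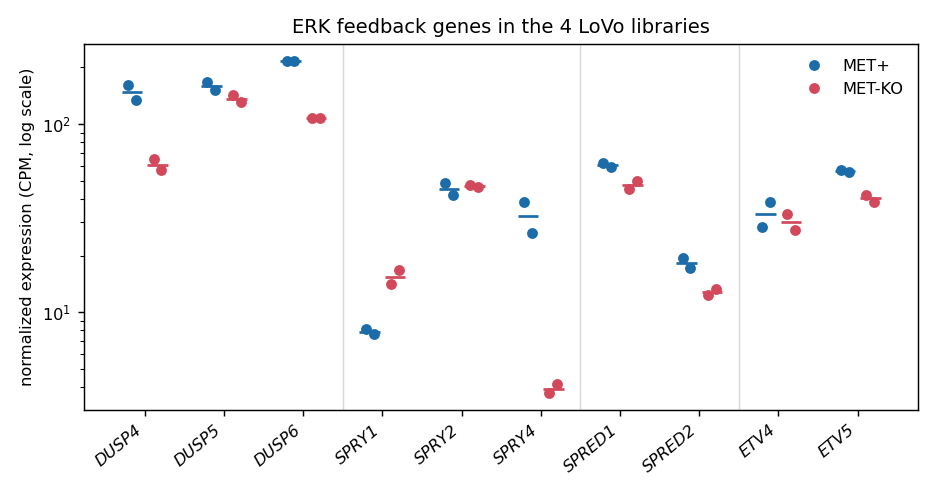
Normalized expression of the 10 genes in CPM on a log axis, with 1 point per library (blue MET+, red MET-KO) and a line at the mean of each group. SPRY4 shows the widest gap, with 38.4 and 26.4 CPM in MET+ and 3.73 and 4.14 CPM in MET-KO cells, SPRY1 is the gene that is higher in both MET-KO libraries, and the points of SPRY2 and ETV4 overlap.

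The phosphatase genes were read at higher normalized levels than the Sprouty, Spred and ETV genes in both groups. Because the 3' method reads a transcript near its poly(A) tail, these CPM values do not scale with transcript length. DUSP6 (ENSG00000139318, chromosome 12, 89347232 to 89353271 on GRCh38) encodes a cytoplasmic phosphatase with a strong preference for ERK. Its level was 217 and 216 CPM in MET+ cells but 108 and 107 CPM in MET-KO cells. The replicates were nearly equal and the groups far apart, with MET-KO cells at 49.5% of the MET+ level. Its log2 fold change was -1.01 (SE 0.09, edgeR adjusted p = 2.91e-11).
DUSP4 (ENSG00000120875, chromosome 8, 29333064 to 29350668), the gene of a nuclear phosphatase of ERK and other MAP kinases, had 162 and 134 CPM in MET+ cells and 65.1 and 56.7 CPM in MET-KO cells. Both MET-KO libraries lay below the lower MET+ library, at 41.3% of the MET+ mean. This was a log2 fold change of -1.28 (SE 0.11, edgeR adjusted p = 3.78e-12).
DUSP5 (ENSG00000138166, chromosome 10, 110497838 to 110511544), which encodes a nuclear phosphatase specific for ERK, differed least among the 7 genes called lower. Its values were 168 and 152 CPM in MET+ and 142 and 131 CPM in MET-KO cells. The groups did not overlap, but the gap between them was smaller than the gap between the MET+ replicates. Its log2 fold change of -0.22 (SE 0.09) passed by a narrow margin (edgeR adjusted p = 0.0454), and it was past the threshold in 4 of 11 alternatives. Without MET+ replicate 1 it was -0.15 (adjusted p = 0.342 from edgeR) and without MET-KO replicate 2 it was -0.17 (adjusted p = 0.229 from edgeR).
The summed level of the 3 phosphatase genes went from 524 ± 31.3 CPM (SD, n = 2) to 305 ± 14.3 CPM (SD, n = 2), or 58.2% of the MET+ level. The 95% intervals of the log2 fold change were -1.49 to -1.06 for DUSP4, -1.20 to -0.83 for DUSP6 and -0.42 to -0.03 for DUSP5. The share of DUSP5 in that sum was 30.7% and 30.3% in MET+ and 45.1% and 44.6% in MET-KO cells. The share of DUSP4 was 29.6% and 26.6% in MET+ and 20.7% and 19.3% in MET-KO cells. These shares describe the 4 libraries and were not tested.

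The Sprouty genes, whose products bind adaptors of receptor tyrosine kinases and curb the activation of RAS and RAF, went in different directions. SPRY4 (ENSG00000187678, chromosome 5, 142310427 to 142326455) was counted 318 and 257 times in MET+ and 38 and 45 times in MET-KO cells. On the normalized scale this was 38.4 and 26.4 CPM against 3.73 and 4.14 CPM. The MET+ replicates were uneven, yet the lower of them was far above both MET-KO libraries, and the MET-KO mean was 12.1% of the MET+ mean. A log2 fold change of -3.03 (SE 0.21, edgeR adjusted p = 2.94e-14) was the lowest of the 10 genes and stood at percentile 2.32 of all tested genes.
SPRY1 (ENSG00000164056, chromosome 4, 123396795 to 123403760) was low in MET+ cells, with 67 and 75 counts, and reached 144 and 182 in MET-KO cells. In CPM the values were 8.1 and 7.7 in MET+ and 14.1 and 16.8 in MET-KO cells. Each MET-KO value exceeded each MET+ value, and the ratio of the means was 1.96. On the log2 scale SPRY1 changed by 0.97 (SE 0.20, edgeR adjusted p = 0.000132), and a rise without overlap was seen in 38.5% of all tested genes.
SPRY2 (ENSG00000136158, chromosome 13, 80335976 to 80340951) had 48.6 and 41.9 CPM in MET+ and 47.2 and 46.4 CPM in MET-KO cells. The MET-KO values lay between the MET+ values. Its fold change on the log2 scale was 0.05, with a 95% interval of -0.19 to 0.29, and the edgeR adjusted p was 0.735.
The make-up of the Sprouty transcripts therefore differed between the groups. The sum of the 3 genes was 95.1 and 76 CPM in MET+ and 65 and 67.3 CPM in MET-KO cells. SPRY4 made up 40.4% and 34.7% of the sum in MET+ libraries but 5.73% and 6.16% in MET-KO libraries. The share of SPRY1 was 8.51% and 10.1% in MET+ and 21.7% and 24.9% in MET-KO cells, and SPRY2 held the most in every library, from 51.1% to 72.5%. No test of these shares was made.

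**Figure D2:**
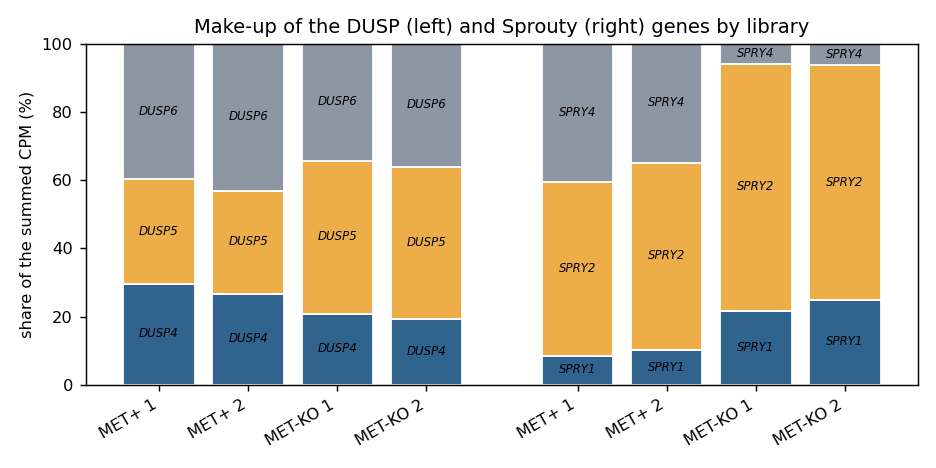
Share of each gene in the summed CPM of the 3 DUSP genes (left) and the 3 Sprouty genes (right), in percent, with 1 bar per library. SPRY4 takes 40.4% and 34.7% of the Sprouty sum in MET+ libraries and 5.73% and 6.16% in MET-KO libraries, and DUSP5 takes a larger share of the DUSP sum in both MET-KO libraries.

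The sequences upstream of SPRY4 and SPRY1 are shown because these genes of the same family had the lowest and the highest fold change, together with that of DUSP6, the most abundant of the 10 genes in MET+ cells. Each is the RefSeq window of 300 bases on GRCh38.p14, from 250 bases before to 50 after a start site, read 5′ to 3′ on the strand of the gene. Capitals mark matches to 7 motifs searched on both strands, of ETS factors (CCGGAA), AP-1 (TGANTCA), CREB (TGACGTCA), the repressor CIC (TGAATGAA and TGAATGGA), TEAD factors (GGAATG) and the CArG box bound by SRF.
SPRY4, chr5:142324198-142324497, minus strand: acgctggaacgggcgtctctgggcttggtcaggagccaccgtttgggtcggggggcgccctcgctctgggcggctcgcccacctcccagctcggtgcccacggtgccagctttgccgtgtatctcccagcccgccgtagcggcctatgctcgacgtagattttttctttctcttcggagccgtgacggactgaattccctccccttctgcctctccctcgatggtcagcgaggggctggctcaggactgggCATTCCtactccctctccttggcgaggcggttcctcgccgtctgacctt
SPRY1, chr4:123398136-123398435, plus strand: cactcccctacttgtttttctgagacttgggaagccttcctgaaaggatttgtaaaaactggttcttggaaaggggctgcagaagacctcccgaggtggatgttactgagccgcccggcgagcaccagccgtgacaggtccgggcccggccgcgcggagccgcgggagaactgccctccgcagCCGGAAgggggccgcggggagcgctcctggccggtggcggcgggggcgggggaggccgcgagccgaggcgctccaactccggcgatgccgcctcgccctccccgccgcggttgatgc
DUSP6, chr12:89352452-89352751, minus strand: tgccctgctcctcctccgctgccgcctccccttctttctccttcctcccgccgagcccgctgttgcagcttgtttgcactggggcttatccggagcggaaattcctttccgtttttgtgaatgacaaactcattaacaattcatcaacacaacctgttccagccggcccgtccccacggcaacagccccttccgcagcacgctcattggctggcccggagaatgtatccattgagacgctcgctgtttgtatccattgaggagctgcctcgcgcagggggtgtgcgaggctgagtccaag
The SPRY4 window held 1 TEAD match, a motif found in 14% of the 35116 RefSeq windows, and the SPRY1 window held 1 ETS match, found in 17.2%. In the DUSP6 window none of the 7 motifs was matched. RefSeq windows were matched for 6 of the 10 genes. Those of SPRY2 and SPRED1 held no match, and that of SPRED2 held 2 AP-1 matches, a motif in 7.71% of all windows. All 6 windows began inside the gene as GENCODE version 29 draws it. The upstream edge of the windows of SPRY4, SPRY1, DUSP6 and SPRED2 lay 1958, 1341, 520 and 65609 bases inside. For SPRY2 and SPRED1 it lay 1042 and 260 bases inside. Other start sites therefore exist, and the 3' counts do not show which was used. The match is a match of letters, and binding was not measured.

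The Spred genes, whose products bring the RAS inactivator neurofibromin to the membrane, had smaller and less certain differences. SPRED1 (ENSG00000166068, chromosome 15, 38252326 to 38357249) had 62.2 and 59.4 CPM in MET+ and 45 and 49.7 CPM in MET-KO cells. The groups did not overlap, and the log2 fold change was -0.36 (SE 0.11, edgeR adjusted p = 0.00679). Without MET-KO replicate 1 it was -0.29 and no longer passed (adjusted p = 0.078 from edgeR).
SPRED2 (ENSG00000198369, chromosome 2, 65310851 to 65432637) was read at a lower level, 19.3 and 17.1 CPM in MET+ and 12.4 and 13.3 CPM in MET-KO cells. The groups again did not overlap. SPRED2 had a log2 fold change of -0.51 (SE 0.18, edgeR adjusted p = 0.0155), and it did not pass without MET+ replicate 1 (-0.42, adjusted p = 0.0817) or without MET-KO replicate 1 (-0.46, adjusted p = 0.0897), both from edgeR. SPRED1 made up 76.3% to 78.9% of the sum of both genes in the 4 libraries, so their proportions were nearly the same in the groups.

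Of the PEA3 factors, ETV5 was lower in MET-KO cells and ETV4 was not distinguishable. ETV5 (ENSG00000244405, chromosome 3, 186046308 to 186110318) had 56.8 and 55.4 CPM in MET+ and 41.9 and 38.7 CPM in MET-KO cells. Replicates were close and the groups did not overlap, with MET-KO cells at 71.8% of the MET+ level. ETV5 had a log2 fold change of -0.48 (SE 0.11, edgeR adjusted p = 0.000606).
ETV4 (ENSG00000175832, chromosome 17, 43527844 to 43579620) had 28.5 and 38.4 CPM in MET+ and 33.3 and 27.3 CPM in MET-KO cells. The values of the groups overlapped, and the spread within the MET+ group was wider than the difference of the means. Its log2 fold change was -0.15, with a 95% interval of -0.44 to 0.14 and an edgeR adjusted p of 0.391.
The annotation of ETV4 overlaps that of DHX8 on the other strand, which had 163 to 253 counts per library, and the annotation of ETV5 overlaps DGKG on the same strand. DGKG went the other way from ETV5, from 5.15 to 17.5 CPM. The antisense gene SPRY4-AS1 had at most 12 counts in a library. How reads in such overlaps were assigned is not given in the sources used here, so part of these counts is uncertain.

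Several chromosomes differed between the groups as a whole, and some of the 10 genes lie on them. The other 616 tested genes of chromosome 5, which holds SPRY4, had a median log2 fold change of -0.43, and the 64 genes within 5 Mb of SPRY4 had -0.46. SPRY4 differed from its chromosome by -2.60 on the log2 scale, at percentile 2.44 of it. Chromosome 12, which holds DUSP6, had a median of -0.31, while the 17 genes within 5 Mb of DUSP6 had 0.10, and DUSP6 differed from the chromosome median by -0.70, at percentile 17 of the chromosome. For SPRED1 the fold change of -0.36 was close to that of its chromosome, with a median of -0.43 over the other 466 genes of chromosome 15 and -0.35 over the 84 genes within 5 Mb, while the nearest 15 genes, within 2 Mb, had 0.21. SPRED1 stood at percentile 54.7 of the chromosome. The chromosomes of the other 7 genes had medians between -0.01 and 0.15. Against these, DUSP4 differed by -1.37, ETV5 by -0.62, SPRED2 by -0.54 and SPRY1 by 0.90. What part these shifts have in the fold change of a single gene was not tested.

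**Figure D3:**
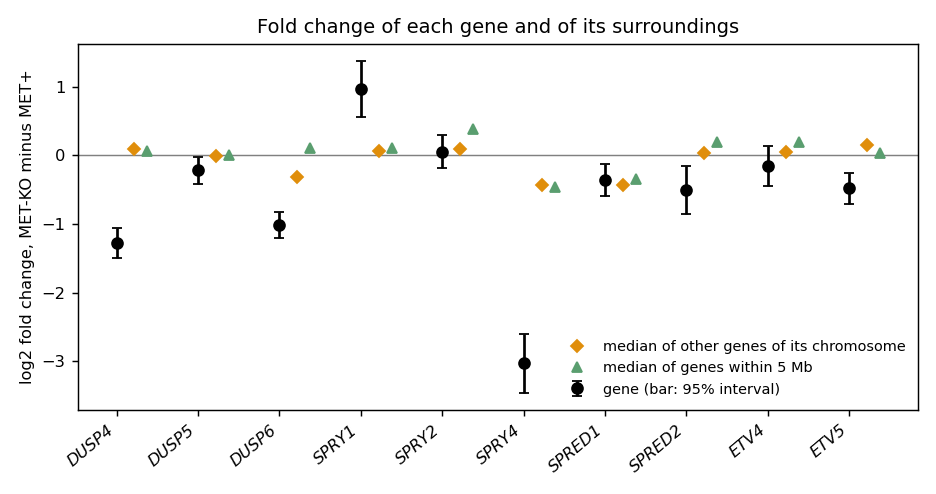
Log2 fold change of each gene, MET-KO minus MET+ (black, with its 95% interval), beside the median of the other tested genes of its chromosome (orange diamonds) and of those within 5 Mb (green triangles). SPRED1 lies at the level of chromosome 15, near -0.43, whereas SPRY4, DUSP4 and DUSP6 lie below both medians of their surroundings and SPRY1 lies above both.

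The calls fell into a firm and a less firm group when the processing was changed. DUSP4, DUSP6, SPRY4, ETV5 and SPRY1 kept their call and direction in all 11 alternatives, which included another scaling, another test, other filters and leaving out each library. Under these the log2 fold change of SPRY4 ran from -3.29 to -2.74, that of DUSP4 from -1.42 to -1.13 and that of DUSP6 from -1.02 to -0.91. ETV5 ran from -0.54 to -0.38 and SPRY1 from 0.84 to 1.08. SPRED1, SPRED2 and DUSP5 were called in 8, 7 and 4 of the 11. With DESeq2's Wald test 4 of the 10 genes were lower, where that test called 16.8% of all genes lower, and 4 were also lower with scaling by library totals alone, where 21.7% of all genes were. SPRY1 was higher under both, as were 16.2% and 31.6% of all genes.

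**Figure D4:**
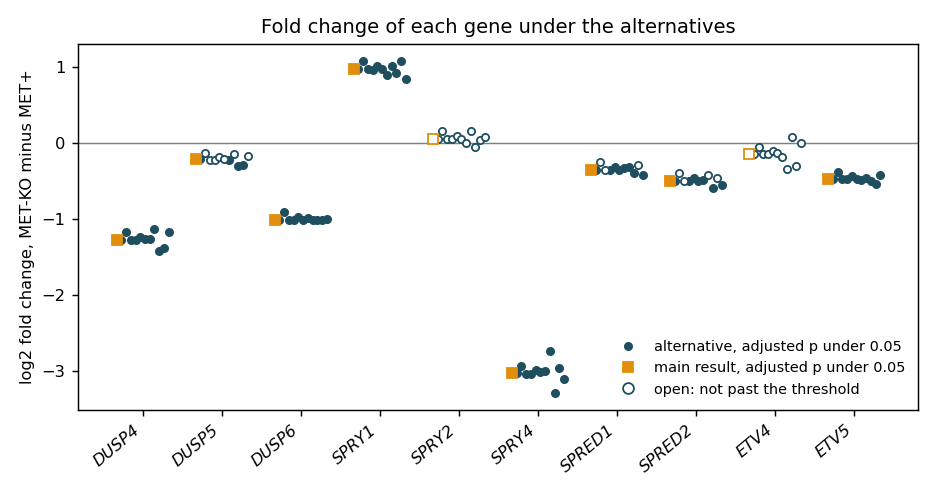
Log2 fold change of each gene, MET-KO minus MET+, in the main result (orange squares) and in the 11 alternatives (circles), filled where the adjusted p was under 0.05. SPRY4, DUSP4, DUSP6, ETV5 and SPRY1 are filled throughout, and DUSP5 is open in 7 of 11.

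Of 10 other members of the same families, 8 were tested, with 1 lower and 3 higher in MET-KO cells and a median log2 fold change of 0.20, against 26.9% lower, 27.2% higher and a median of 0.01 for all tested genes. The 4 calls among 8 genes are near the 54.1% called over all genes. SPRY3 and SPRED3 had too few counts for the test. DUSP9, the gene of a further cytoplasmic ERK phosphatase, fell from 47.3 to 22 CPM (log2 fold change -1.11, SE 0.13). DUSP16, which encodes a phosphatase acting mainly on JNK and p38, rose from 47.3 to 70.5 CPM (0.57, SE 0.12), and the immediate early phosphatase gene DUSP1 rose from 3.17 to 6.57 CPM (1.05, SE 0.31). ETV1, which completes the PEA3 family with ETV4 and ETV5, rose from 0.991 to 19.7 CPM, 4.36 on the log2 scale (SE 0.32, edgeR adjusted p = 8.66e-14). The MET+ level of ETV1 rests on 13 and 4 counts, against 196 and 219 in MET-KO cells, so the size of its change is uncertain. Its chromosome, 7, had a median of 0.50. The 16 genes within 5 Mb of ETV1 had a median of 0.70, and the 5 within 2 Mb had -0.71.
Among 16 other genes that ERK induces, 14 were tested, with 9 lower and 1 higher in MET-KO cells, beside 26.9% lower and 27.2% higher over all tested genes, and a median log2 fold change of -0.55. The AP-1 subunit gene FOSL1 fell from 135 to 33.1 CPM (log2 fold change -2.03, SE 0.12) and the immediate early factor gene EGR1 from 20 to 7.01 CPM (-1.51, SE 0.20), EGR1 lying on chromosome 5. PHLDA1, often read together with DUSP and SPRY genes as a measure of pathway output, fell from 1260 to 964 CPM (-0.39, SE 0.09). MYC was the gene that rose, from 72.2 to 91.4 CPM (0.34, SE 0.10). The cyclin D1 gene CCND1 (0.05), JUNB (-0.06), IER3 (-0.13) and FOS (-0.17) did not pass the threshold, and EGR2 and EGR3 were too low to be tested.

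**Figure D5:**
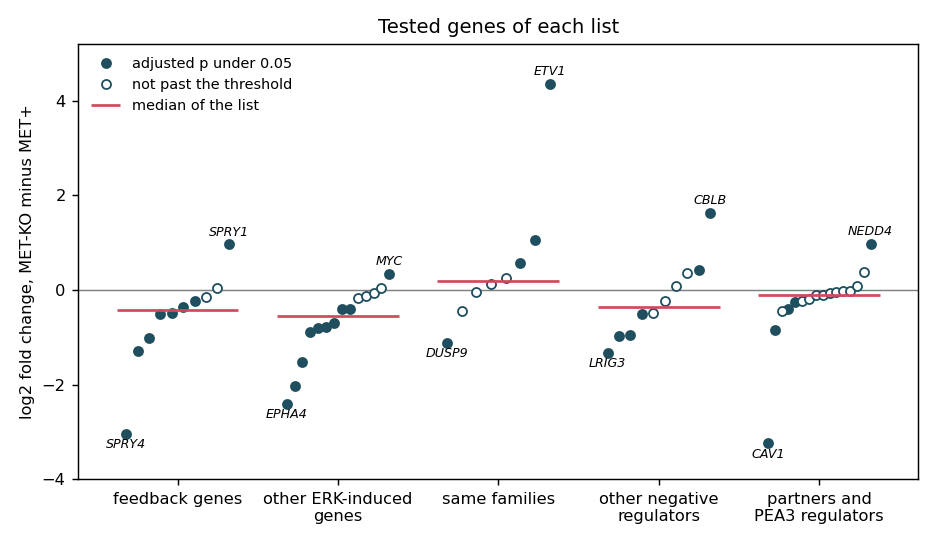
Log2 fold change, MET-KO minus MET+, of the tested genes of 5 lists, filled where the adjusted p was under 0.05, with the median of each list in red and its lowest and highest gene named. The medians of the feedback genes and of the other ERK-induced genes are -0.42 and -0.55, that of other members of the same families is 0.20.

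Proteins that the feedback genes act on, bind or are regulated by formed a list of 16 tested genes, with 4 lower and 1 higher, where 26.9% of all tested genes were lower and 27.2% higher, and a median log2 fold change of -0.11. The share called lower was thus near that of all genes, and the share called higher was below it. Of the 16 genes, 11 did not pass, where 54.1% of all tested genes were called. The log2 fold changes of MAPK3 (ERK1), GRB2, PTPN11 and NF1 lay between -0.07 and 0.08 and did not pass. CAV1, the gene of caveolin 1, a membrane scaffold protein that binds Sprouty proteins, fell from 983 to 104 CPM (-3.24, SE 0.10). The median of its chromosome, 7, was 0.50. That of the 21 genes within 5 Mb of CAV1 was 0.21, and that of the 10 genes within 2 Mb was -0.75. The edited gene, MET, lies on the same chromosome (116672390 to 116798386), with the same numbers of genes and medians in both windows. For CAV1, an effect of the editing on this region and an effect of losing MET cannot be told apart. SIAH2, a ubiquitin ligase gene, fell from 39.1 to 21.8 CPM (-0.84, SE 0.14), and NEDD4, another ubiquitin ligase gene, rose from 5.57 to 11.1 CPM (0.98, SE 0.24). ERF, which encodes an ETS repressor controlled by ERK, was also called lower (-0.41, SE 0.12), and CIC, the repressor of PEA3 genes, did not pass (-0.19, SE 0.13).
Of 10 further negative regulators of the path from receptor to ERK, 4 were lower and 2 higher, with a median log2 fold change of -0.36. Calls in either direction made up 54.1% of all tested genes (26.9% lower, 27.2% higher), so that 6 of 10 is near the background. RASA1, the gene of a RAS GTPase-activating protein, fell from 20 to 10.3 CPM (-0.96, SE 0.19) and the adaptor gene SH2B3 from 18.4 to 9.46 CPM (-0.95, SE 0.19). PEBP1, which encodes an inhibitor of RAF, fell from 830 to 583 CPM (-0.51, SE 0.10), and LRIG3 from 6.03 to 2.36 CPM (-1.33, SE 0.34). The EGFR inhibitor gene ERRFI1 rose from 95.2 to 128 CPM (0.43, SE 0.10) and the ubiquitin ligase gene CBLB from 2.42 to 7.41 CPM (1.63, SE 0.33). RASA1 lies on chromosome 5 and SH2B3, PEBP1 and LRIG3 on chromosome 12, whose medians were -0.43 and -0.31. The 71 genes within 5 Mb of SH2B3 had a median of 0.29, and those within 5 Mb of RASA1, PEBP1 and LRIG3 had -0.24, -0.57 and -0.47. For ERRFI1 the median within 5 Mb was 0.04. CBLB rests on 23 and 20 counts in MET+ cells. The 20 genes within 5 Mb of CBLB had a median of 0.19, and the 4 within 2 Mb had 2.21.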

How the data were processed

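Total RNA was sequenced by the QuantSeq 3' mRNA method (forward). As deposited by the authors, each of the 4 files holds whole read counts per gene without normalization, with 99 spike-in rows at 0 counts. The submitters' processing notes name bcl2fastq, cutadapt 1.16, STAR 2.5.4a, featureCounts 1.6.2, DESeq2 1.18.1 and GRCh38. The annotation and strand setting are not given in the sources used here. Gene names were taken from GENCODE version 29, which held 58552 of the 58825 IDs, and promoter windows from RefSeq (GRCh38.p14).
Counts were tested in R 4.3.3 with edgeR 4.0.16 (filterByExpr, TMM, quasi-likelihood test, condition only), with Benjamini-Hochberg adjustment over 13801 genes at 0.05. CPM values use TMM library sizes, and a standard error (SE) is the log2 fold change divided by the root of the F statistic, its size taken. Intervals cover 95%. A count of 0 allows up to 0.276 to 0.363 CPM (3 counts), which covers counting error only. Copies made by PCR cannot be separated. DESeq2 1.42.0 was an alternative, as were other scalings and filters, thinning, a replicate block and leaving out each library. Scripts were tested on simulated data.
The 10 genes and the lists were chosen with earlier results of these data known. Named in the text are the 10 genes, MET, the markers of colon epithelium and genes behind counts of 5 or fewer. Up to 4 called genes per list are also named (lowest and highest, groups without overlap, mean log2 CPM of at least 3). MAPK3, GRB2, PTPN11, NF1 and CIC were added for their role after the values were seen, and some list genes are not reported here by name.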

Additional observations from a re-analysis of the deposited data

How the results depend on the processing

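The number of feedback genes called lower in MET-KO cells went from 7 to 4 with DESeq2's Wald test and to 4 with library totals alone, which lost DUSP5, SPRED1 and SPRED2, and was 5 to 7 when each library was left out. Library totals alone also moved the median of all genes from 0.01 to 0.11. Among the partner genes, the number called lower went from 4 to 2 with DESeq2's test, and the number called higher from 1 to 2 with library totals alone and with at least 10 counts in every library. Fold changes that turned sign were those of SPRY2 (-0.06) and ETV4 (0.08) without MET+ replicate 2, neither called, and their ranges over the left-out libraries were -0.06 to 0.16 and -0.34 to 0.08. With a window of 2 Mb in place of 5 Mb, the local medians turned to -0.01 for DUSP4, -0.11 for DUSP5, 0.21 for SPRED1 and -0.10 for SPRED2. The cause of these differences was not tested.
Replicate numbers did not pair the libraries by the data (correlation of same-numbered deviations across genes -0.022). With the replicate number as a block, 7055 genes were called in place of 7467, and 6 feedback genes were lower in place of 7, as DUSP5 no longer passed (adjusted p = 0.098 from edgeR). SPRY4 in MET-KO cells and SPRY1 in MET+ cells rest on 38 to 75 counts per library, the lowest depth among the 10 genes.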
